A study of Mus musculus with 4 samples.

Results

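The insulin-like growth factor (IGF) axis was followed in ovarian granulosa cells (GCs) through 10 genes: the ligand Igf1, the receptors Igf1r and Insr, the receptor substrates Irs1 and Irs2, and the binding protein genes Igfbp2, Igfbp3, Igfbp4, Igfbp5 and Igfbp7. They were found by symbol in the table of 25239 genes, and all 10 were listed once. RNA-seq libraries came from cultured GCs of wild-type (WT) C57BL/6 female mice at postnatal day 24, with 2 libraries of cells exposed to HDACi 4b and 2 control libraries, so that strain, age and genotype were shared by both groups. The paper's methods took mural GCs for culture from mice primed with pregnant mare serum gonadotropin, used there in place of follicle-stimulating hormone. HDACi 4b blocks the deacetylases HDAC1 and HDAC3, which remove acetyl groups from histones, and no library separates the effect on HDAC3 from that on HDAC1. The cells had been cultured in medium with serum, which carries IGFs and IGF binding proteins of its own, so the transcripts measured here say nothing of the amount of these proteins around the cells. Levels are FPKM, in which reads are divided by the length of the gene and the size of the library, which allows different genes to be set side by side. FPKM means are given with the SD of their 2 libraries and log2 differences with the SE of the fit. Whether the 2 libraries of a group stem from different cultures or animals is not stated in the labels. The p-values thus speak of the spread among 4 libraries that may be only technical replicates.

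IGF1 made by GCs of growing follicles acts back on the same cells through the IGF1 receptor, a tyrosine kinase close in structure to the insulin receptor, and it strengthens their answer to follicle-stimulating hormone (FSH). Binding proteins hold IGFs in the follicular fluid and set how much ligand is free, until proteases cut them. Inside the cell, the activated receptors phosphorylate insulin receptor substrates, which recruit phosphoinositide 3-kinase (PI3K). The kinase AKT is then switched on and drives the transcription factor FOXO1 out of the nucleus.

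HDACi 4b-treated GCs held 19.7-fold less of the ligand transcript Igf1 and about 5-fold less of the substrate transcripts Irs1 and Irs2 than control GCs. Igf1r averaged 14.2 ± 0.315 FPKM in treated and 14.3 ± 1.40 FPKM in control GCs (n = 2 each). Among the binding proteins, Igfbp5, the most abundant of the 10 in control GCs, fell 30.4-fold. It fell further than all but 1 of the genes fitted on the log2(FPKM + 1) scale, where changes of weakly expressed genes come out too small. Igfbp2 rose 1.45-fold and was the most abundant of the 10 in treated GCs. The change in Igfbp4 and Igfbp7 was not larger than the spread between libraries, and Igfbp3 was near the lower end of what was detected in both groups.

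The 250 bases before the annotated start are shown for the 4 members whose transcripts were lower by about 5-fold or more in treated GCs, and for Igfbp2, the fitted member that rose, so that their sequence content can be compared. They are RefSeq sequences of build GRCm38.p6, 5′ to 3′ on the strand of the gene. Capitals mark matches on either strand to the letters GGGCGG (GC box), TGACG (the core of a cAMP response element) and CCAAT. The letters GTAAACA (a FOXO site) and TATAA were searched as well and were not in these windows.
Igf1 (chr10:87860861-87861110, plus strand): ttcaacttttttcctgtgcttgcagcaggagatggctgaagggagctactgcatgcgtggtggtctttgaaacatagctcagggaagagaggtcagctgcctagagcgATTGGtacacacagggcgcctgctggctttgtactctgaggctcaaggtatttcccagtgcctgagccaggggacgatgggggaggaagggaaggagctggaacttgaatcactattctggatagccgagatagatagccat
Igfbp5 (chr1:72874866-72875115, minus strand): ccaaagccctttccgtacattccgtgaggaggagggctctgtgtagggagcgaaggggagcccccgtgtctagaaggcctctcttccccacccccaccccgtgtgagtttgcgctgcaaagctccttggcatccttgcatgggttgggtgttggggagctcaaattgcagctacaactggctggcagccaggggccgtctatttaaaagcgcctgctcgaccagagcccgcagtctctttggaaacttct
Irs1 (chr1:82291440-82291689, minus strand): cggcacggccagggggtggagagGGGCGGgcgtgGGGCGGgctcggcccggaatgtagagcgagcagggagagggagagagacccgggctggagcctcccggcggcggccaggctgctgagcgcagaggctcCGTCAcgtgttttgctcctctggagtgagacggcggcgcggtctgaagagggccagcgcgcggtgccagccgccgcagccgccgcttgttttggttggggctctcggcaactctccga
Irs2 (chr8:11008930-11009179, minus strand): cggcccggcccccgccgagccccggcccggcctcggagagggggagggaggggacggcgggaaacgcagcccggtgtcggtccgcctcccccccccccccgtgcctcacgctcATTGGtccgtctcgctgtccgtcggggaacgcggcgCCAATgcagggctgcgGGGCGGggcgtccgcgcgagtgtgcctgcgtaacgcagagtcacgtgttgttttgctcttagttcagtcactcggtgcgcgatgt
Igfbp2 (chr1:72824230-72824479, plus strand, the more upstream of its annotated starts): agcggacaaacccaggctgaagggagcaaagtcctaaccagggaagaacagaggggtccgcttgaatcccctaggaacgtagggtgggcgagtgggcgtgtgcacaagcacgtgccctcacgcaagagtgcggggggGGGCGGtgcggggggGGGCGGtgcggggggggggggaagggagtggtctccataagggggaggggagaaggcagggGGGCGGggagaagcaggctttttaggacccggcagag

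The windows of the members that were lower in treated GCs were not of a single kind. Those of Irs1 and Irs2 held 72.4% and 72.8% G and C with 28 and 34 CpG dinucleotides, whereas those of Igf1 and Igfbp5 held 52.8% and 58.8% with 5 and 10 CpG dinucleotides. The median over all 32851 windows of the RefSeq table was 52.4% G and C. The Igfbp2 window shown held 3 GC boxes, whereas the window of its more downstream start held 0, with 56.4% G and C. Irs1 held 2 GC boxes and 1 cAMP response core, Irs2 held 1 GC box and 2 CCAAT boxes, Igf1 held 1 CCAAT box, and Igfbp5 held no match. Of the 10 members, 9 had an entry, in 10 windows, of which 5 held a GC box, beside 32.7% of all windows. A CCAAT box was in 2 of the 10 member windows, beside 33.8% of all windows, and a TATAA match in 1, beside 22.8%. The cAMP response core was in 1 member window, beside 17.8% of all windows, and the FOXO letters were in 0, beside 3.17%. Igfbp2 and Igfbp5 lie next to each other on chromosome 1, and their transcripts moved in opposite directions.

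The 4 libraries rested on 16215581 and 15951875 reads in HDACi 4b-treated GCs and on 16438728 and 17665107 reads in control GCs, and log2 values correlated across genes at 0.993 between the treated libraries and 0.989 between the controls. Of the 12054 genes fitted, 2700 were higher and 4597 lower in treated GCs, and the median log2 difference over all of them was -0.15. Scaling the libraries by median ratios took that median to 0.00 and the counts to 3556 higher and 3270 lower. Markers of GCs were present (Foxl2 at 24.0 and 28.9 FPKM in treated and 61.4 and 74.2 FPKM in control GCs), although 6 of 9 fitted GC markers were lower and 2 higher in treated GCs, and Cyp19a1, the aromatase gene, was under 1 FPKM in every library. Markers of other cells moved as well. The 6 fibroblast and stroma markers summed to 13.4 and 22.6 FPKM in treated GCs, against 42.1 and 85.1 FPKM in control GCs, and the 5 smooth muscle markers to 26.3 and 45.9 FPKM, against 169.0 and 256.3 FPKM. Most of the smooth muscle sum was Acta2, at 23.5 and 41.5 FPKM in treated and 162.1 and 245.1 FPKM in control GCs. All 3 fitted genes of each of these 2 lists were lower in treated GCs. Of those under the filter, Tagln and Des overlapped between the groups, Dcn and Lum were lower and Pdgfra was slightly higher in treated GCs. The 6 theca markers summed to 158.0 and 137.7 FPKM in treated GCs, against 251.8 and 217.9 FPKM in control GCs, nearly all of it Aldh1a1. All 3 fitted ones were lower, and the theca markers Cyp17a1 and Insl3 were under 0.5 FPKM in all 4 libraries. Gli1, under the filter, went the other way, at 1.88 and 1.73 FPKM in treated GCs, against 0.0974 and 0.261 FPKM in control GCs. The 5 macrophage and leukocyte markers summed to 56.2 and 47.7 FPKM in treated GCs, against 66.7 and 103.9 FPKM in control GCs. Cd68 was higher and Lyz2 lower in treated GCs, and Ptprc was under 0.1 FPKM in all 4 libraries. Adgre1 and Csf1r, under the filter, were lower in treated GCs. Adgre1 was at 0.342 and 0.328 FPKM in treated GCs, against 1.59 and 1.69 FPKM in control GCs. Csf1r was at 0.215 and 0.218 FPKM, against 0.735 and 1.09 FPKM. Surface epithelium markers summed to 5.18 and 7.60 FPKM in treated GCs, against 2.04 and 3.74 FPKM in control GCs, and both fitted ones, Krt19 and Lgals7, were higher. Krt7 and Upk3b, under the filter, went the other way. Krt7 was at 0.0262 and 0.0267 FPKM in treated GCs, against 0.302 and 0.489 FPKM in control GCs. Upk3b was at 0.0175 and 0.0888 FPKM, against 0.431 and 0.914 FPKM, and Msln overlapped between the groups. The 5 endothelial markers summed to under 2 FPKM in every library, and the 4 oocyte markers to 3.62 and 5.69 FPKM in treated and 3.18 and 0.888 FPKM in control GCs. In bulk RNA, fewer cells of a type and less RNA per cell cannot be told apart, and the part of these other cells in the results below was not tested.

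Of the 10 genes, 8 averaged 1 FPKM or more and were fitted, and Irs1 and Igfbp3 did not. Among the 8 fitted, 4 were lower (Igf1, Insr, Irs2, Igfbp5), 1 was higher (Igfbp2) and 3 were not called at an adjusted p of 0.05 (Igf1r, Igfbp4, Igfbp7). Over all genes fitted, 60.5% were called, 38.1% lower and 22.4% higher, so the number of members called was near that of genes at large. At least 2-fold lower were 3 of the 8 members (Igf1, Irs2, Igfbp5), beside 6.7% of all genes, and 0 were at least 2-fold higher, beside 7.54%. The median log2 difference over the 8 was -0.63. The treated and control libraries did not overlap for 6 of the 8, all but Igf1r and Igfbp7, beside 83.1% of all genes fitted, so this count was no higher than among genes at large.

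**Figure D1:**
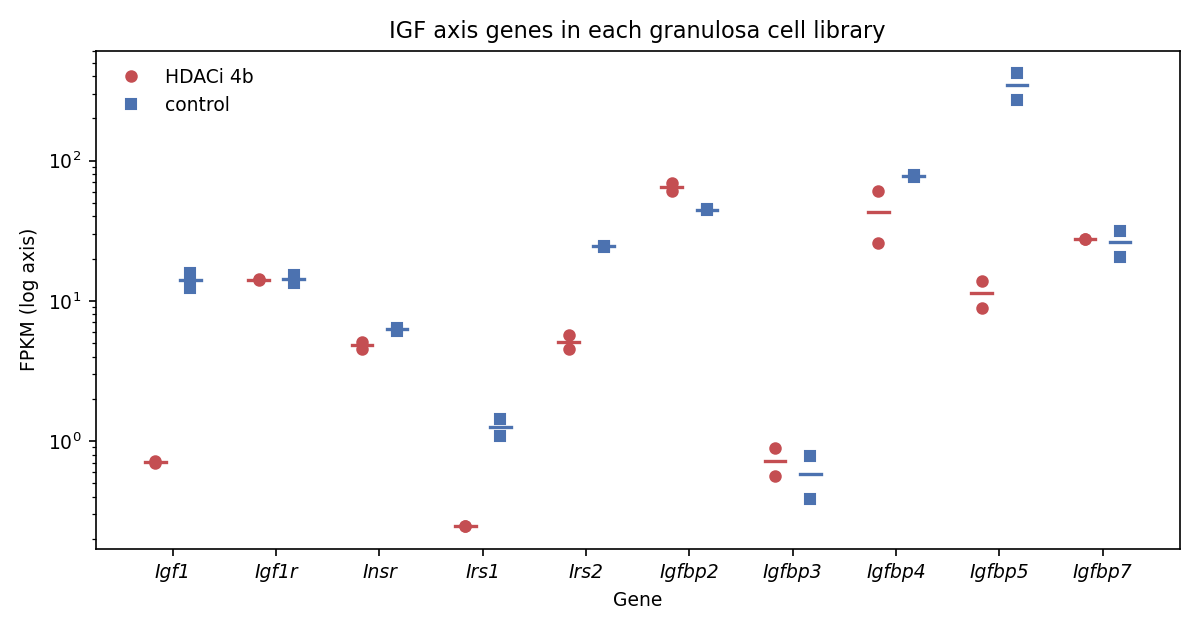
FPKM of the 10 IGF axis genes on a log axis, with a point for each library and a short line at the mean of each group, HDACi 4b-treated GCs (red circles) left of control GCs (blue squares). Igf1, Irs1, Irs2 and Igfbp5 lie well below the controls in both treated libraries, Igf1r lies level with them, and Igfbp2 lies above them.

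Igf1, which encodes the IGF1 ligand, was at 0.697 and 0.722 FPKM in HDACi 4b-treated GCs, against 15.7 and 12.3 FPKM in control GCs. Both treated libraries were more than 10-fold below both controls, and the treated libraries lay closer to each other than the controls did. The means were 0.709 ± 0.0171 FPKM in treated and 14.0 ± 2.39 FPKM in control GCs (n = 2 each), a 19.7-fold lower level. On the scale of log2(FPKM + 1), where changes of weakly expressed genes come out too small, Igf1 fell by 3.12 ± 0.13 (adjusted p = 0.000114) and ranked 25 from the bottom of 12054 genes. The values came from 112 and 114 reads in treated and 2550 and 2149 reads in control libraries. The read ratio of control over treated GCs was 19.6, with an exact 95% interval of 17.2 to 22.5 that covers counting error only. Its fall was called under all 10 alternative settings, with adjusted p between 1.06e-05 and 0.00611. Igf1 was higher in control replicate 1, which held the lower stromal and smooth muscle sums of the 2 controls. In treated GCs both Igf1 and these sums were higher in replicate 2. Between the groups, Igf1 and these sums were lower in treated GCs alike. The part of these cells in the fall of Igf1 was not tested.

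Igf1r, the receptor through which IGF1 acts, did not share that change. Treated libraries were at 14.4 and 14.0 FPKM, against 15.3 and 13.4 FPKM in controls, with the treated values inside the range of the controls. The log2 difference was -0.01 ± 0.086 (adjusted p = 0.903). It was called under 0 of the 10 alternatives, whose adjusted p ran between 0.199 and 0.963, and its sign changed with the setting. The reads, 3920 and 3737 in treated and 4234 and 3961 in control libraries, gave a ratio of treated over control GCs of 0.991 with an exact 95% interval of 0.960 to 1.02.

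Insr encodes the insulin receptor, which also forms hybrids with the IGF1 receptor. It was at 5.12 and 4.56 FPKM in treated GCs, against 6.39 and 6.11 FPKM in control GCs. Both treated libraries were below both controls, by a small margin beside the other members that fell. Insr fell by 0.31 ± 0.087 on the log2 scale (adjusted p = 0.0262), a call that was made under only 4 of the 10 alternatives. It was lost without the filter (adjusted p = 0.0569), with median-ratio scaling (log2 difference -0.17, adjusted p = 0.159), and when any single library was left out, namely HDACi 4b replicate 1 (-0.38, adjusted p = 0.0574), HDACi 4b replicate 2 (-0.24, adjusted p = 0.133), control replicate 1 (-0.29, adjusted p = 0.0886) or control replicate 2 (-0.34, adjusted p = 0.0565). Per library, the ratio of Igf1r to Insr FPKM was 2.81 and 3.06 in treated and 2.40 and 2.19 in control GCs. The ratio was above both controls in both treated libraries, and the exact permutation test over libraries gave p = 0.333, the smallest p that 2 against 2 libraries allow. Added together, Igf1r and Insr came to 19.5 and 18.5 FPKM in treated and 21.7 and 19.5 FPKM in control GCs, and the groups overlapped.

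Both receptor substrates among the members, Irs2 and Irs1, were lower by similar factors. Irs2, a docking protein for the activated receptors, was at 4.56 and 5.68 FPKM in treated GCs, against 24.4 and 24.6 FPKM in control GCs. The controls agreed closely and the treated libraries stood far below them. Irs2 was 4.78-fold lower by means (5.12 ± 0.789 FPKM in treated and 24.5 ± 0.165 FPKM in control GCs, n = 2 each) and fell by 2.06 ± 0.10 on the log2 scale (adjusted p = 0.000171, between 2.79e-06 and 0.00526 over the 10 alternatives, all called). Irs1, its relative, was at 0.250 and 0.247 FPKM in treated GCs, against 1.09 and 1.42 FPKM in control GCs. Irs1 stayed under the filter, so it has no p in the fit that the other members have. Its reads were 37 and 36 in treated and 164 and 230 in control libraries, a ratio of control over treated GCs of 5.09 with an exact 95% interval of 3.96 to 6.63. With no filter Irs1 was lower at an adjusted p of 0.0120, and with limma-voom on recovered reads at an adjusted p of 0.000165 (log2 difference -2.32).

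The 2 substrates together came to 4.81 and 5.93 FPKM in treated GCs, against 25.5 and 26.0 FPKM in control GCs, which is 4.79-fold lower in treated GCs (exact permutation p = 0.333, the smallest p this design allows). Their balance did not follow the groups. The ratio of Irs2 to Irs1 was 18.3 and 23.0 in treated and 22.3 and 17.3 in control GCs, with overlapping values (exact permutation p = 0.667), so Irs2 was the main substrate transcript in every library.

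**Figure D2:**
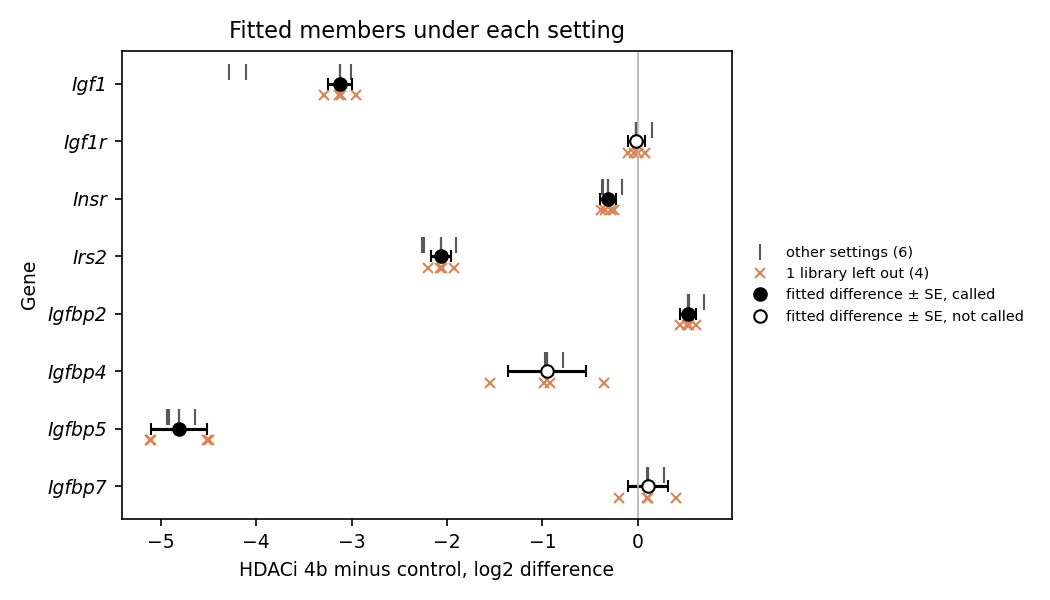
Log2 difference of HDACi 4b-treated minus control GCs for the 8 fitted IGF axis genes. Circles with bars are the fitted difference ± SE (filled where called), ticks are 6 other settings, of which the smaller pseudocount and limma-voom use other log2 scales, and crosses are fits with 1 library left out. Igfbp5, Igf1 and Irs2 stay far left of 0 in every fit, Igf1r stays near 0, and Igfbp4 is spread by its treated libraries between -1.55 and -0.35.

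Igfbp5, a secreted binding protein that also attaches to extracellular matrix, was at 8.85 and 13.8 FPKM in treated GCs, against 418.4 and 271.6 FPKM in control GCs, where it was the most abundant of the 10 transcripts. The higher treated library was far below the lower control. By means it was 30.4-fold lower (11.3 ± 3.51 FPKM in treated and 345.0 ± 103.8 FPKM in control GCs, n = 2 each). Igfbp5 fell by 4.81 ± 0.29 on the log2 scale (adjusted p = 0.000533), and it ranked 2 from the bottom of 12054 genes. The reads were 862 and 1323 in treated libraries, against 41308 and 28812 in controls. The call was made under all 10 alternatives, with adjusted p between 0.00052 and 0.00747. As with Igf1, the higher of the 2 controls was replicate 1, which held the lower stromal and smooth muscle sums. The higher of the 2 treated libraries was replicate 2, which held the higher of these sums in treated GCs. The part of these cells in the fall of Igfbp5 was not tested.

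Igfbp2, a binding protein that also attaches to the cell surface, was at 68.8 and 60.8 FPKM in treated GCs, against 45.0 and 44.1 FPKM in control GCs. Both treated libraries were above both controls, by less than 2-fold. Igfbp2 rose by 0.53 ± 0.080 on the log2 scale (adjusted p = 0.00351, between 0.000721 and 0.0310 over the 10 alternatives, all called), with means of 64.8 ± 5.65 FPKM in treated and 44.5 ± 0.603 FPKM in control GCs (n = 2 each).

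Igfbp4, an inhibitory binding protein that the protease PAPP-A cuts in the follicle, differed between the treated libraries more than any other member. It was at 25.9 and 60.5 FPKM in treated GCs, against 79.0 and 75.9 FPKM in control GCs. Both treated values lay below the controls, but HDACi 4b replicate 1 was far below and replicate 2 was close to them. The log2 difference was -0.95 ± 0.41 (adjusted p = 0.108). Without HDACi 4b replicate 2 it was -1.55 with an adjusted p of 0.00518, and without HDACi 4b replicate 1 it was -0.35 with an adjusted p of 0.054. The 2 treated values rested on 1853 and 4262 reads, against 5738 and 5919 reads in controls.

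Igfbp7, a secreted protein of the IGFBP family that binds IGFs weakly, was at 27.4 and 27.6 FPKM in treated GCs, against 20.6 and 31.7 FPKM in control GCs. The treated libraries were nearly equal and lay between the 2 controls. The log2 difference was 0.10 ± 0.21 (adjusted p = 0.693). It was -0.19 without control replicate 1, the lower control, and 0.40 with an adjusted p of 0.0113 when control replicate 2, the higher control, was left out. That library also held the higher stromal and smooth muscle sums, and a link was not tested. Igfbp7 overlaps Polr2b on the opposite strand, and reads of the 2 genes cannot be told apart unless counting used strand. Polr2b, which encodes a subunit of RNA polymerase II, was at 21.9 and 23.0 FPKM in treated and 22.9 and 22.3 FPKM in control GCs.

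Igfbp3, the main carrier of IGFs in blood, was at 0.887 and 0.561 FPKM in treated GCs, against 0.389 and 0.778 FPKM in control GCs. The groups overlapped. Its 45 and 28 reads in treated and 20 and 43 reads in control libraries gave a ratio of treated over control GCs of 1.23, with an exact 95% interval of 0.865 to 1.75, and no difference was called (adjusted p = 0.630 without the filter and 0.502 with limma-voom).

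**Figure D3:**
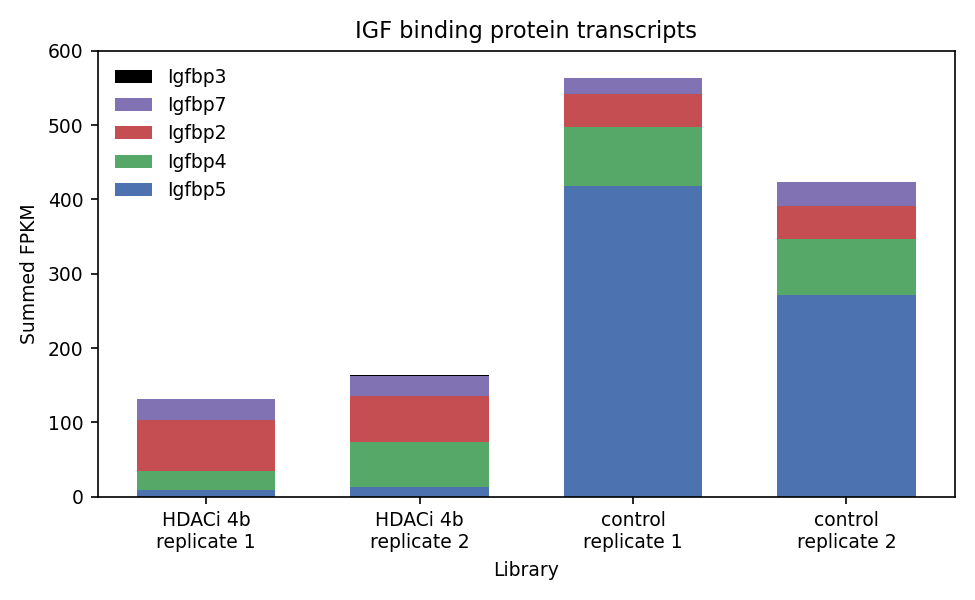
Summed FPKM of the 5 IGF binding protein genes in each library, HDACi 4b-treated GCs on the left and control GCs on the right, with each gene as a colour. The treated libraries reach 131.8 and 163.3 FPKM and the controls 563.4 and 424.0 FPKM, and the Igfbp5 share at the base of each bar makes up most of the gap.

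The 5 binding protein transcripts summed to 131.8 and 163.3 FPKM in treated GCs, against 563.4 and 424.0 FPKM in control GCs, a 3.35-fold lower sum in treated GCs. Igfbp5 supplied 6.71% and 8.46% of the sum in treated and 74.3% and 64.1% in control GCs. Igfbp2 supplied 52.2% and 37.2% of the sum in treated GCs, against 7.98% and 10.4% in control GCs. The share of Igfbp4 was 19.6% and 37.1% in treated and 14.0% and 17.9% in control GCs, and that of Igfbp7 was 20.8% and 16.9%, against 3.65% and 7.47%. The groups did not overlap for any of these 4 shares. Shares of a sum depend on each other, so the fall of Igfbp5 alone raises the other shares. The FPKM of Igfbp4 was lower in both treated libraries, and that of Igfbp7 lay between the controls. The exact permutation test gave p = 0.333 for the sum and for each share, the smallest p that 2 against 2 libraries allow. Set against the binding proteins, the ligand was still lower: Igf1 came to 0.529 and 0.442 FPKM for each 100 FPKM of binding protein transcript in treated GCs, against 2.78 and 2.90 FPKM in control GCs (5.85-fold lower in treated GCs, exact permutation p = 0.333).

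The order of the members by level changed accordingly. In treated GCs it ran from Igfbp2 (64.8 FPKM) over Igfbp4, Igfbp7, Igf1r, Igfbp5, Irs2, Insr, Igfbp3 and Igf1 down to Irs1 (0.248 FPKM). The libraries overlapped between the neighbours Igfbp4 and Igfbp7, Irs2 and Insr, and Igfbp3 and Igf1, so these pairs did not differ beyond their spread. In control GCs it ran from Igfbp5 (345.0 FPKM) over Igfbp4, Igfbp2, Igfbp7, Irs2, Igf1r, Igf1, Insr and Irs1 down to Igfbp3 (0.583 FPKM), with overlap between Igfbp7 and Irs2 and between Igf1r and Igf1. Igf1 thus stood level with its receptor transcript in control GCs and among the lowest members in treated GCs.

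The wider IGF and insulin family was listed with 19 of 20 genes, and most of them were barely detected. Only 6 passed the filter, of which 1 was higher, 2 lower and 3 not called in treated GCs, beside 60.5% called over all genes. The remaining ligand, Igf2, the imprinted fetal growth factor, was at 1.08 and 1.42 FPKM in treated GCs, against 0.117 and 0.109 FPKM in control GCs. These low levels rested on 100 and 130 reads in treated and 11 and 11 reads in control libraries, a ratio of 11.1 with an exact 95% interval of 7.15 to 18.0, opposite in direction to Igf1. Igf2 was under the filter, and it was higher with no filter (adjusted p = 0.00842) and with limma-voom (adjusted p = 0.000156). Igf2os, which overlaps it on the opposite strand, was at 0.162 and 0.164 FPKM in treated and 0.0570 and 0.0318 FPKM in control GCs. Igf2r, the receptor that clears IGF2 from the cell surface, was at 13.5 and 13.1 FPKM in treated and 12.5 and 12.4 FPKM in control GCs (log2 difference 0.09, adjusted p = 0.277, but 0.25 with an adjusted p of 0.0241 under median-ratio scaling).

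Insrr, the orphan relative of the insulin receptor that senses alkaline pH, had 71 and 28 reads in treated libraries, against 0 and 0 in controls. The treated levels were low, at 0.766 and 0.307 FPKM. It was called with limma-voom (adjusted p = 0.000703) and not in the fit without a filter (adjusted p = 0.0660).

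Of the genes that act on the binding proteins or on their proteases, Htra1 was higher and Stc2 lower in treated GCs. Htra1, a secreted serine protease that cuts IGF binding proteins, was at 303.1 and 307.6 FPKM in treated GCs, against 177.2 and 121.2 FPKM in control GCs. Htra1 rose by 1.05 ± 0.19 on the log2 scale (adjusted p = 0.00961), but was no longer called when either treated library was left out (adjusted p = 0.0549 without replicate 1 and 0.0531 without replicate 2). Stc2, a secreted inhibitor of PAPP-A, was at 1.61 and 1.50 FPKM in treated GCs, against 3.80 and 3.91 FPKM in control GCs. It fell by 0.92 ± 0.093 on the log2 scale (adjusted p = 0.000969), under all 10 alternatives as well. The genes of PAPP-A, its relative and the other stanniocalcin were rare. Pappa had 30 and 33 reads in treated and 26 and 31 reads in control libraries, Pappa2 had 1 and 1 against 0 and 4, and Stc1 had 17 and 32 against 34 and 75.

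Igfbp6, a binding protein that prefers IGF2, was at 14.6 and 19.8 FPKM in treated GCs, against 6.07 and 11.9 FPKM in control GCs. The treated libraries lay above both controls, but with a log2 difference of 0.91 ± 0.33 the gene was not called (adjusted p = 0.0712, between 0.00504 and 0.241 over the 10 alternatives). Ide, the insulin-degrading enzyme, was at 33.2 and 33.0 FPKM in treated GCs, against 47.3 and 40.2 FPKM in control GCs, and it fell by 0.39 ± 0.093 on the log2 scale (adjusted p = 0.0161), a call lost under median-ratio scaling (log2 difference -0.22, adjusted p = 0.0963), without HDACi 4b replicate 1 (adjusted p = 0.0933) and without replicate 2 (adjusted p = 0.0923). Igf2bp2, an RNA-binding protein of Igf2 mRNA, was at 1.70 and 1.82 FPKM in treated and 0.947 and 1.39 FPKM in control GCs (adjusted p = 0.0766). Its relatives were rarer still, Igf2bp1 with 29 and 27 reads in treated and 4 and 5 in control libraries and Igf2bp3 with 29 and 46 against 11 and 14. Their ratios of treated over control GCs were 6.60 (exact 95% interval 3.24 to 15.2) and 3.18 (2.00 to 5.22). Both were called higher with limma-voom (adjusted p = 0.0019 and 0.0115) and not in the fit without a filter (adjusted p = 0.0669 and 0.127). Irs3, a further receptor substrate, had 15 and 26 reads in treated and 6 and 9 in control libraries. The ratio of treated over control GCs was 2.90 with an exact 95% interval of 1.57 to 5.64, opposite in direction to Irs1 and Irs2. Irs3 was called with limma-voom (adjusted p = 0.0384) and not in the fit without a filter (adjusted p = 0.113). Igfbp1, Igfbpl1, Ins2 and Irs4 had at most 3 reads in any library, Igfals was at 0.0292 and 0 FPKM in treated and 0.0288 and 0 FPKM in control GCs, and Ins1 was not analysed here.

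Among the listed genes that act below the receptors, Pik3r1 and Grb14 fell furthest. Of 21 fitted genes of the list of receptor adaptors and brakes, 5 were higher and 9 lower in treated GCs, beside 22.4% higher and 38.1% lower over all genes (median log2 difference -0.13, beside -0.15 over all genes). Grb14, an adaptor that binds the activated insulin receptor and restrains its kinase, was at 8.89 and 9.68 FPKM in treated GCs, against 122.1 and 156.6 FPKM in control GCs. It fell by 3.76 ± 0.13 on the log2 scale (adjusted p = 0.000114), 15.0-fold by means, and ranked 12 from the bottom of 12054 genes. Gab1, a docking protein that like the substrates recruits PI3K, was at 5.72 and 6.43 FPKM in treated GCs, against 12.8 and 12.8 FPKM in control GCs, and fell by 0.97 ± 0.080 (adjusted p = 0.000545).

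Cish, a feedback inhibitor of cytokine receptors of the SOCS family, was at 2.84 and 2.13 FPKM in treated GCs, against 0.104 and 0.123 FPKM in control GCs. It rose by 1.64 ± 0.15 on the log2 scale (adjusted p = 0.000688), 21.8-fold by means, from 11 and 14 reads in control libraries. The adaptor Shc1, which links receptors to the Ras pathway, was at 23.4 and 23.1 FPKM in treated and 16.4 and 15.6 FPKM in control GCs, and rose by 0.51 (adjusted p = 0.00202). The phosphatase Ptpn2 was at 8.45 and 8.41 FPKM in treated GCs, against 12.4 and 12.8 FPKM in control GCs, and the adaptor Crkl at 8.14 and 8.37 FPKM, against 11.8 and 12.4 FPKM. Both fell, by 0.53 (adjusted p = 0.00191) and 0.50 (adjusted p = 0.00266) on the log2 scale.

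**Figure D4:**
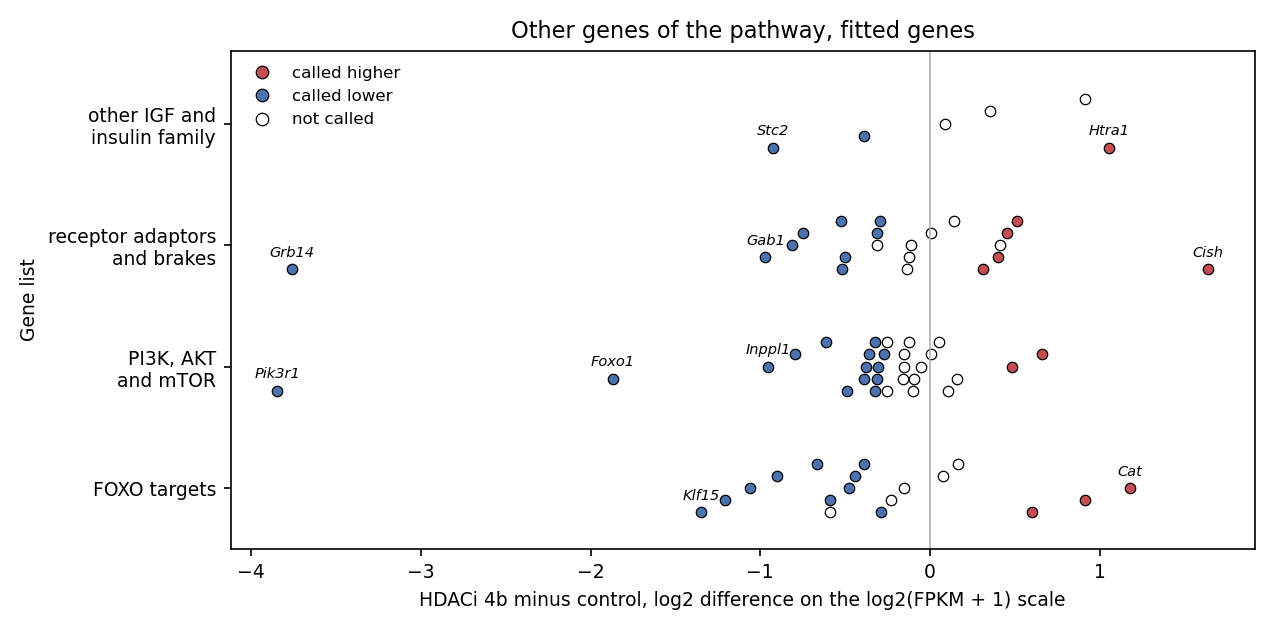
Log2 difference of HDACi 4b-treated minus control GCs on the log2(FPKM + 1) scale for the fitted genes of 4 lists around the IGF axis, with a point for each gene. Red points are called higher, blue points called lower and white points not called, and Grb14 and Pik3r1 stand far below the other genes of their lists.

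In the chain of PI3K, AKT and mTOR, 29 of 30 genes were fitted, of which 2 were higher and 14 lower in treated GCs (median log2 difference -0.25). Their 16 calls of 29 were a share no higher than the 60.5% called over all genes. Under median-ratio scaling 9 were lower. Pik3r1, the alpha regulatory subunit through which PI3K docks on the substrates, was at 6.22 and 9.72 FPKM in treated GCs, against 102.4 and 153.8 FPKM in control GCs. It fell by 3.85 ± 0.28 on the log2 scale (adjusted p = 0.000812, all 10 alternatives called), 16.1-fold by means, and ranked 8 from the bottom of 12054 genes. The beta regulatory subunit Pik3r2 was at 22.4 and 24.2 FPKM in treated and 33.6 and 32.4 FPKM in control GCs and fell by 0.49 (adjusted p = 0.00294), so that it was the more abundant of the 2 in treated and the less abundant in control GCs. Per library, the ratio of Pik3r1 to Pik3ca, a catalytic subunit, was 0.927 and 1.46 in treated GCs, against 11.5 and 16.7 in control GCs (11.8-fold lower in treated GCs, exact permutation p = 0.333).

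Akt1 and Akt2 encode AKT kinases. Akt1 was at 72.2 and 73.5 FPKM in treated GCs, against 89.4 and 92.0 FPKM in control GCs, and fell by 0.31 on the log2 scale (adjusted p = 0.00836), with the call lost under median-ratio scaling (-0.14, adjusted p = 0.102), without HDACi 4b replicate 1 (adjusted p = 0.0738) and without replicate 2 (adjusted p = 0.0583). Akt2 was at 20.1 and 20.9 FPKM in treated and 21.7 and 22.3 FPKM in control GCs (adjusted p = 0.235).

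Inppl1, a lipid phosphatase, fell as well, to 23.6 and 25.4 FPKM in treated GCs, against 42.2 and 55.3 FPKM in control GCs (log2 difference -0.95, adjusted p = 0.00376). Akt1s1, an inhibitor of mTOR that AKT relieves, was at 23.3 and 23.2 FPKM in treated GCs, against 40.3 and 41.6 FPKM in control GCs (-0.79, adjusted p = 0.00046). Gsk3a, a kinase that AKT switches off, fell by 0.38 (adjusted p = 0.00488). Foxo1 was at 10.8 and 11.7 FPKM in treated GCs, against 48.8 and 39.2 FPKM in control GCs, with the call kept under all 10 alternatives.

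Of 18 fitted FOXO target genes, 3 were higher and 10 lower in treated GCs (median log2 difference -0.41), beside 22.4% higher and 38.1% lower over all genes. Pik3ca, called lower, and Rictor, not called, were counted both in this list and in the PI3K chain. Klf15, a transcription factor of metabolism, was at 2.25 and 2.67 FPKM in treated GCs, against 7.43 and 8.19 FPKM in control GCs (log2 difference -1.35, adjusted p = 0.000429). Fbxo32, a ubiquitin ligase of muscle wasting, was at 1.42 and 1.92 FPKM in treated GCs, against 5.60 and 4.72 FPKM in control GCs (-1.21, adjusted p = 0.00128). Pdk4, which restrains pyruvate oxidation, was at 3.48 and 4.04 FPKM in treated GCs, against 8.13 and 9.75 FPKM in control GCs (-1.06, adjusted p = 0.00117), and Ccng2, a cyclin of resting cells, at 6.20 and 7.05 FPKM, against 12.3 and 14.2 FPKM (-0.90, adjusted p = 0.0013). Cat and Sod2 were among the 3 that rose. Cat, which encodes catalase, was at 119.6 and 123.4 FPKM in treated GCs, against 51.9 and 54.6 FPKM in control GCs (1.18, adjusted p = 0.0002), and Sod2, the mitochondrial superoxide dismutase, at 41.2 and 37.7 FPKM, against 20.3 and 20.6 FPKM (0.91, adjusted p = 0.00048).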

How the data were processed

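RNA-seq was measured in 2 HDACi 4b-treated and 2 control libraries of cultured GCs, grouped by sample title. Treatment and extraction notes of the samples speak of tamoxifen and frozen ovaries, and titles and design were followed. Bowtie 0.12.2 and build mm8 stand in the submitters' processing notes, with the read counter, gene models and use of strand not given in the sources used here. Values were deposited by the authors as FPKM, in a table that names no unit. Multiplied by GENCODE M21 exon length and library total, 90.4% of matched genes (21610 of 23895) came to whole reads in each library (tolerance 0.001 reads), all 10 members among them, and 1 read at 2 kb was worth 0.0283 to 0.0313 FPKM. No file column was left out. The 12054 genes that averaged 1 FPKM or more over the 4 libraries were fitted as log2(FPKM + 1) by limma 3.58.1 (R 4.3.3) without covariates. Empirical Bayes used the trend and robust options, tests were two-sided, and p-values were adjusted by Benjamini-Hochberg over these genes, with a threshold of 0.05. Fold changes given as multiples are ratios of mean FPKM. Single values per library were compared by exact two-sided permutation tests. Exact read ratio intervals are conditional binomial. The 10 alternatives were median-ratio scaling, a replicate block, no filter on low genes, a pseudocount of 0.1, no trend and no robust option, limma-voom fitted to the recovered reads of genes with 10 or more in 2 libraries, and leaving out each library. The fit was tested on simulated data in which far fewer genes changed than were called here, so that test does not cover so broad a change. Members and gene lists were chosen with earlier results of these data known. Named were all members, the measured IGF and insulin family, the 6 fitted genes of smallest p in each other list, and Foxo1, Akt1 and Akt2 in any case, while a few genes named by the rule are not reported here. Igf1r to Insr, Irs2 to Irs1, substrate and receptor sums and Pik3r1 to Pik3ca were computed from FPKM per library. Figures were drawn with matplotlib 3.10.9.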

Additional observations from a re-analysis of the deposited data

How the results depend on the processing

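The calls of Igf1, Irs2, Igfbp2 and Igfbp5 were made under all 10 alternatives, with log2 differences over the fits that left out 1 library of -3.29 to -2.96, -2.19 to -1.93, 0.44 to 0.62 and -5.12 to -4.50. Insr was not called without the filter (-0.31), with median-ratio scaling (-0.17) or with 1 library left out (-0.38 to -0.24), whereas Igfbp4 ran between -1.55 and -0.35 and Igfbp7 between -0.19 and 0.40 with 1 library left out. Igf1r, never called, changed sign under median-ratio scaling (0.15) and ran between -0.107 and 0.0800 with 1 library left out. Without control replicate 2, 2 fitted members were higher (range 1 to 2 over left-out libraries). The log2 ratio of Irs2 to Irs1 changed sign, at -0.11 without HDACi 4b replicate 2 and also at -0.11 without control replicate 2 (range -0.11 to 0.26), and the log2 difference of Igf1r plus Insr was 0.0572 under median-ratio scaling. Over all genes, leaving out 1 library gave 1775 to 2559 higher and 2796 to 4181 lower, the lowest of both without HDACi 4b replicate 1, and limma-voom on recovered reads called 1673 genes at least 2-fold higher and 1663 at least 2-fold lower, against 909 and 808 on the log2(FPKM + 1) scale. Among other IGF and insulin family genes, 2 were higher with the replicate block and 4 with median-ratio scaling, 1 was lower with median-ratio scaling and 1 with limma-voom, and left-out libraries gave 0 to 3 higher and 1 to 2 lower. Leaving out libraries gave 3 to 5 higher and 5 to 9 lower adaptors and brakes, and 1 to 2 higher and 8 to 13 lower genes of the PI3K chain, of which 9 were lower with median-ratio scaling. For the 28 named pathway genes, 256 of 274 alternative values kept their direction and side of the threshold, 10 lost the call, 7 gained it and 1 changed sign (Akt2, at 0.0661 under median-ratio scaling). The cause of these changes was not tested, beyond the fewer libraries of the left-out fits. The replicate block called 2728 genes higher and 4587 lower and changed no call of a member. Deviations of same-numbered libraries correlated at 0.0877. With only 2 pairs, this value cannot show whether the numbers pair the libraries. The few reads of Igfbp3, 20 to 45 a library, left an interval for its ratio that spans 1.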
